A study of Homo sapiens with 8 samples.

Results

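The 10 genes described here are transcription factors that hold epithelial cells in their state or drive them out of it. They were chosen by name, for their known part in the epithelial-mesenchymal transition (EMT), out of 33791 genes with estimated counts. Earlier results of these data were known when they and the gene lists used below were chosen. Counts of changed genes among them are therefore descriptions and not tests. *ZEB1*, *ZEB2*, *SNAI1*, *SNAI2* and *TWIST1* are the EMT inducers. *GRHL1*, *GRHL2*, *OVOL1*, *OVOL2* and *KLF5* are the epithelial-state factors.

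ZEB1 and ZEB2 are zinc-finger repressors that bind E-boxes in the promoters of epithelial genes such as *CDH1*, which encodes E-cadherin. SNAI1 and SNAI2 bind the same kind of site, and TWIST1 is a basic helix-loop-helix factor that acts upstream of mesenchymal genes. The grainyhead-like factors GRHL1 and GRHL2 activate junction genes, OVOL1 and OVOL2 are zinc-finger repressors of mesenchymal genes, and KLF5 is a zinc-finger factor of basal and luminal epithelium. GRHL2 and OVOL2 on one side and ZEB1 on the other are described as repressing each other's genes, which gives epithelial tissues such as the prostate a switch between states.

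The libraries are RNA-seq of PNT2, a human prostate epithelial cell line that was immortalized, and were made to study the repressors *CIC* and *ERF*, which lie next to each other on chromosome 19. Each of 4 groups has a library A and a library B: WT, ERF KD (short hairpin RNA against *ERF*), CIC KO (guide RNA against *CIC* with Cas9) and CIC-ERF codeletion (both). Engineered cells were selected with antibiotics, and more than 1 hairpin and guide were made, but what the letters A and B stand for, and whether they are separate cultures, is not stated, so that p-values measure only the spread between these libraries. Estimated counts summed to between 19477473 and 25813157 a library. Expression is given as CPM (counts scaled to library size by TMM) for each library, or as TPM, which also corrects for transcript length, where levels of different genes are compared. Differences are log2 fold changes with SE (standard error), from edgeR's quasi-likelihood test over all 14653 genes left after low counts were filtered out, with Benjamini-Hochberg adjustment. A gene is called changed at an adjusted p under 0.05.

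*ERF* mRNA did not follow the labels of the single-loss libraries. It was 55.8 and 55.9 CPM in the WT libraries, 81.2 and 77.8 in those labelled ERF KD, 18.8 and 11.7 in those labelled CIC KO, and 11.6 and 10.4 in CIC-ERF codeletion. *CIC*, in which Cas9 cutting need not lower the mRNA, was 128 and 129 CPM in the WT libraries, 108.5 and 109 in those labelled ERF KD, 132 and 131 in those labelled CIC KO, and 90.9 and 66.4 in CIC-ERF codeletion. Low *ERF* mRNA thus went with the CIC KO label, and the names of the deposited single-loss files carry the opposite letters. The single-loss groups are therefore named below by what their labels say, and each direction drawn from them rests on labels that *ERF* mRNA contradicts. The study's methods describe checks of *CIC* and *ERF* in its engineered lines by quantitative PCR and immunoblot, which are not part of these files, and an exchange of labels was not tested.

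The keratins *KRT8* and *KRT18*, which define simple epithelium, were at 564 TPM or more in every library. The summed level of 7 epithelial markers ran from 3721 to 4151 TPM in WT, from 3910 to 4575 in the libraries labelled CIC KO and from 3808 to 4471 in CIC-ERF codeletion, but from 1648 to 2020 in those labelled ERF KD. Of 7 fibroblast markers, *LUM* was at 0 in every library and the sum ran from 22.9 to 31.0 TPM in WT and, overlapping it, from 20.8 to 44.5 in the libraries labelled ERF KD. Smooth muscle, endothelial, leukocyte, neural and melanocyte markers summed to at most 29.7 TPM in any library, but single markers among them were present. *MITF*, of the melanocyte list, was between 14.2 and 25.5 TPM and *PMEL* at most 3.89, while *TYR*, like *DES* of smooth muscle, stayed at or under 3 counts. Endothelial *CDH5* was between 1.11 and 28.2 TPM, highest in CIC-ERF codeletion replicate A, and *CD14*, of the leukocyte list, between 0.453 and 13.1. In bulk RNA, fewer epithelial cells and less epithelial RNA in each cell cannot be told apart.

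The promoters of *ZEB1* and *ZEB2* are shown because these were the inducers that rose most, and because E-boxes and OVOL sites are the elements through which the members are described as acting on each other. RefSeq promoter windows (250 bases before to 50 after a start, GRCh38.p14) were at hand for 4 of the 10 members, 11 windows in all, of which 7 belong to *ZEB1*. The spellings searched, on both strands, were CAGGTG for the E-box and CCGTTA for OVOL factors, which do not overlap each other, and they are printed in capitals. The first stretch, on the plus strand at chr10:31318966-31319124, ends just before the annotated start of *ZEB1-201*, the main coding transcript. The others are 30 bases around a match, at chr10:31319119-31319148, chr10:31319236-31319265 and chr10:31319553-31319582 (plus strand) and at chr2:144520079-144520108 (minus strand).
ZEB1 upstream: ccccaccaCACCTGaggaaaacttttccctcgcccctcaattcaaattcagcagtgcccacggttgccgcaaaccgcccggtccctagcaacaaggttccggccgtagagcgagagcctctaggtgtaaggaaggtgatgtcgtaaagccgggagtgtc
ZEB1 E-box at the start: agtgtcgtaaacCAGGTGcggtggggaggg
ZEB1 E-box past the start: tggcggatggcccCAGGTGtaagcgcagaa
ZEB1 OVOL spelling: cgcctccctggaCCGTTAgccggcgccgac
ZEB2 OVOL spelling: gctctgcaggaaTAACGGtcctgcctcccg

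The window around the starts of *ZEB1-201* and 7 other models held 3 E-boxes, 1 more lay in a window further upstream, and 20.6% of all 35116 RefSeq promoters held at least 1. The OVOL spelling was found in 3.07% of all promoters, and among the matched members in 1 window each of *ZEB1* and *ZEB2*. A share over single windows is not the rate for a gene with several. The ETS core CCGGAA, the kind of site that ERF binds, was present as TTCCGG in the *ZEB1* window with 3 E-boxes. Of all promoters, 17.2% held it. The GRHL spelling AACCGGTT was in no window of the 4 matched members and in 0.134% of all promoters. The CIC octamers searched (TGAATGAA, TGAATAAA, TCAATGAA, TCAATAAA and TGAATGGA) were found in 5.42% of all promoters and, as TTTATTGA, in 1 other window of *ZEB1*. No binding was measured in these files, so the matches are letters in a window and not sites of a factor.

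In WT the epithelial-state factors were the more abundant set. *SNAI2* (61.5 ± 1.98 TPM, SD, n = 2), *GRHL2* (60.2 ± 9.08) and *KLF5* (49.8 ± 3.79) stood at the top, and *SNAI2* and *GRHL2* overlap. *OVOL1* (17.2 ± 4.42) and *OVOL2* (17.1 ± 1.37) overlap in the middle, followed by *TWIST1* (10.3 ± 1.22). *GRHL1* (5.51 ± 1.63) and *ZEB1* (4.51 ± 0.607) overlap, *ZEB2* had 2.08 ± 1.01 TPM, and *SNAI1* was lowest, at 0.778 ± 0.145. Among the 5 inducers chosen here, WT PNT2 cells thus carried *SNAI2* as the main mRNA, beside little *ZEB1* and *ZEB2*. Summed over the 5 genes, the epithelial-state factors had between 149 and 150.3 TPM in WT, but between 31.7 and 41.1 in the libraries labelled ERF KD. Their sum was between 116 and 132 TPM in the libraries labelled CIC KO, also below WT, and between 129 and 159 in CIC-ERF codeletion, around WT. The sum of the inducers was between 77.3 and 81.1 TPM in WT, but between 71.9 and 103 in the libraries labelled ERF KD, which overlap. *SNAI2* was lower and *ZEB1* and *ZEB2* were higher there than in WT.

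**Figure D1:**
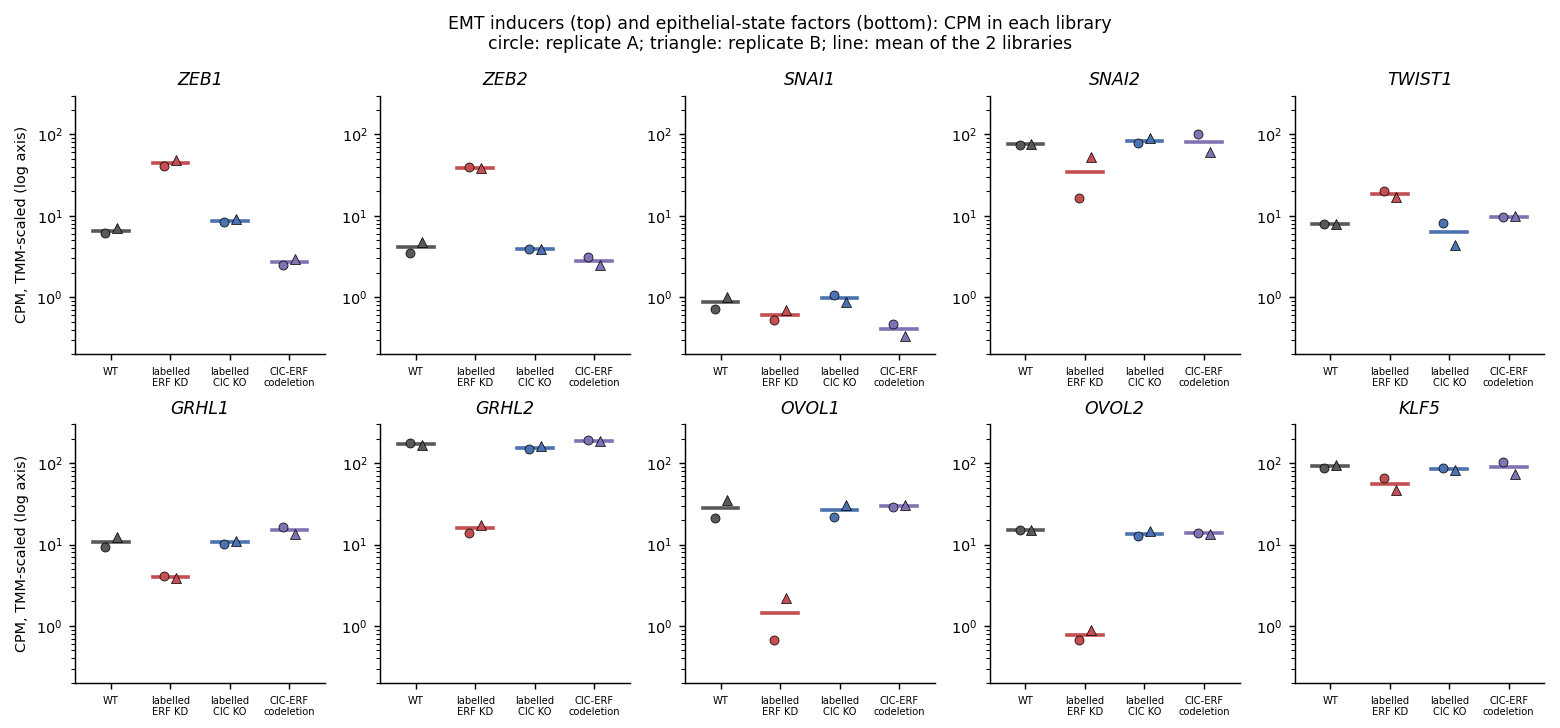
CPM of the 10 members in each library on a log axis, with inducers in the top row and epithelial-state factors in the bottom row. In the libraries labelled ERF KD, *ZEB1* and *ZEB2* sit between 38.2 and 49.0 CPM and *OVOL2* below 1, while for these genes the libraries labelled CIC KO stay near WT.

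The libraries labelled ERF KD were compared with WT to ask how the set differs with a single loss. *ZEB1*, *ZEB2* and *TWIST1* rose, and *GRHL1*, *GRHL2*, *OVOL1* and *OVOL2* fell. So 3 of 5 inducers were called higher and 4 of 5 epithelial-state factors lower. Of all genes tested 4.01% were called higher, 6.07% lower and 10.1% in all. The members were chosen with earlier results known, so the counts describe them and are no test of the set. All 10 members passed the filter, and 9 of them were above its level in all 8 libraries, the exception being *SNAI1* (6 of 8). In 3 members both libraries were above both of WT (28.3% of all genes) and in 7 both were below (28.0%).

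*ZEB1* (chromosome 10, 31318495 to 31529814, plus strand, GRCh38) was 6.08 and 7.04 CPM in WT, against 41.1 and 49.0 in the libraries labelled ERF KD. Both of the latter were far above both WT libraries, a log2 difference of 2.78 (SE 0.195, adjusted p = 0.000131) or 6.86-fold. *ZEB2* (chromosome 2, 144364364 to 144524583, minus strand) was 3.47 and 4.79 CPM in WT, against 40.1 and 38.2 in the libraries labelled ERF KD. Its replicates differed by less than 2 CPM there, and the log2 fold change was 3.24 (SE 0.232, adjusted p = 0.000138), or 9.48-fold. Both passed the test under all 16 alternatives.

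*TWIST1* (chromosome 7, 19020991 to 19117672, minus strand) was 7.93 and 7.95 CPM in WT, against 20.2 and 17.1 in the libraries labelled ERF KD. The groups do not overlap, and the log2 fold change was 1.23 (SE 0.285, adjusted p = 0.0307). This call was the least firm of the inducers: without WT replicate A the adjusted p was 0.162, without WT replicate B 0.146, without ERF KD replicate A 0.112, without ERF KD replicate B 0.0641, and without CIC-ERF codeletion replicate A or B 0.0552 or 0.0539.

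The SNAI factors did not rise with them. *SNAI2* (chromosome 8, 48917604 to 48921740, minus strand) was 74.3 and 77.0 CPM in WT, against 16.7 and 52.2 in the libraries labelled ERF KD. Both libraries lay below WT but far apart from each other, and the log2 fold change of -1.14 (SE 0.452) did not pass the test (adjusted p = 0.162). Without ERF KD replicate B it was -2.18. With no filter on low counts it was -1.13 and passed the test (adjusted p = 3.07e-07, where 1472 of 22195 genes were called lower). *SNAI1* (chromosome 20, 49982999 to 49988886, plus strand) was 0.712 and 1.02 CPM in WT, against 0.528 and 0.695 in the libraries labelled ERF KD, from 11 and 14 counts. The log2 fold change of *SNAI1* was -0.50 (SE 0.524) and did not pass the test (adjusted p = 0.617).

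Of the epithelial-state factors, *GRHL2* (chromosome 8, 101492432 to 101669726, plus strand) was 178 and 167 CPM in WT, against 14.1 and 17.6 in the libraries labelled ERF KD. It fell by 3.44 on the log2 scale (SE 0.153, adjusted p = 3.47e-05), or 10.9-fold, with replicates close together in both groups. Its paralog *GRHL1* (chromosome 2, 9951693 to 10002277, plus strand) was 9.45 and 12.3 CPM in WT, against 4.13 and 3.92 in the libraries labelled ERF KD. Both libraries lay below WT, and *GRHL1* fell by 1.43 (SE 0.231, adjusted p = 0.00670). This call was lost on the TPM scale (adjusted p = 0.0679 by limma at a pseudocount of 1 and 0.0625 at 0.1) and without WT replicate B (0.0552).

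*OVOL1* (chromosome 11, 65787022 to 65797219, plus strand) was 21.4 and 35.5 CPM in WT, against 0.672 and 2.24 in the libraries labelled ERF KD, from 14 and 45 counts. It fell by 4.29 on the log2 scale (SE 0.481, adjusted p = 0.00116), and between 3.66 and 5.39 when single libraries were left out. *OVOL2* (chromosome 20, 17956979 to 18059188, minus strand) was 15.2 and 15.1 CPM in WT, against 0.672 and 0.894 in the libraries labelled ERF KD, from 14 and 18 counts. The 4 libraries separate by more than 10 CPM, and *OVOL2* fell by 4.26 (SE 0.245, adjusted p = 5.43e-05). It shares 59 exonic bases with *SNX5* on the same strand, where reads cannot be assigned with certainty.

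*KLF5* (chromosome 13, 73054976 to 73077542, plus strand) differed least of the epithelial-state factors. It was 88.2 and 95.2 CPM in WT, against 65.3 and 46.2 in the libraries labelled ERF KD. Both libraries lay below WT, but the log2 fold change of -0.72 (SE 0.203) did not pass the test (adjusted p = 0.0626). It passed with the replicate letter as a block (0.0156, where 9.83% of all genes were called lower). It also passed by DESeq2 (0.0132, where 1153 of 14653 genes were called lower) and with no filter on low counts (0.00128, where 1472 of 22195 were). Without ERF KD replicate A the log2 fold change was -0.99.

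In the libraries labelled CIC KO, in which *ERF* mRNA was low, 0 of the 10 members were called against WT. The test called 0% of all genes there (edgeR, with 587 genes at an unadjusted p under 0.05, and 26 called by DESeq2). *ZEB1* was 8.37 and 9.05 CPM, both above WT, by 0.41 on the log2 scale (SE 0.190). *GRHL2* was 150 and 160 CPM, both below WT, with a log2 difference of -0.15 (SE 0.137). The other members had log2 fold changes between -0.34 (*TWIST1*) and 0.16 (*SNAI1*), each within 2 SE of 0, and all 10 had the same adjusted p of 0.9997. In 2 members both libraries were above both of WT and in 3 both were below, where 16.1% of all genes were so in each direction.

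In CIC-ERF codeletion against WT, 0 of the 10 members were called, and 0.0682% of all genes were (0.00682% higher and 0.0614% lower, edgeR, with 1950 genes at an unadjusted p under 0.05 and 444 called by DESeq2). In 3 members both libraries were above both of WT (24.4% of all genes) and in 4 both were below (25.1%). *ZEB1* was lower rather than higher there: it was 2.50 and 2.93 CPM, both below 6.08 and 7.04 in WT. Its log2 fold change was -1.27 (SE 0.204, adjusted p = 0.0741), and with the replicate letter as a block it was called lower (adjusted p = 0.0171, where 1.52% of all genes were called lower). DESeq2 also called it (adjusted p = 0.000669).

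*ZEB2* was 3.09 and 2.48 CPM in CIC-ERF codeletion, both below WT, with a log2 difference of -0.56 (SE 0.233, adjusted p = 0.358). *SNAI1* was 0.466 and 0.338 CPM, from 11 and 6 counts, with a log2 difference of -1.08 (SE 0.542, adjusted p = 0.430). For both inducers the libraries do not overlap those of WT, but the differences did not pass the test. *SNAI2* (102 and 61.2 CPM) spread around WT, and *TWIST1* (9.74 and 9.87 CPM) was above it, with a log2 difference of 0.30 (SE 0.284, adjusted p = 0.672).

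The epithelial-state factors stayed close to WT in CIC-ERF codeletion. *GRHL2* was 190.5 and 188 CPM, a log2 difference of 0.14 (SE 0.137, adjusted p = 0.696), and *OVOL2* was 14.0 and 13.4 CPM, a log2 difference of -0.14 (SE 0.196, adjusted p = 0.783). *OVOL1* (28.8 and 30.8 CPM) and *KLF5* (103 and 74.7 CPM) overlap WT. *GRHL1* had the largest difference of the 5, with 16.6 and 13.4 CPM, both above WT, and a log2 difference of 0.46 (SE 0.221, adjusted p = 0.414).

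**Figure D2:**
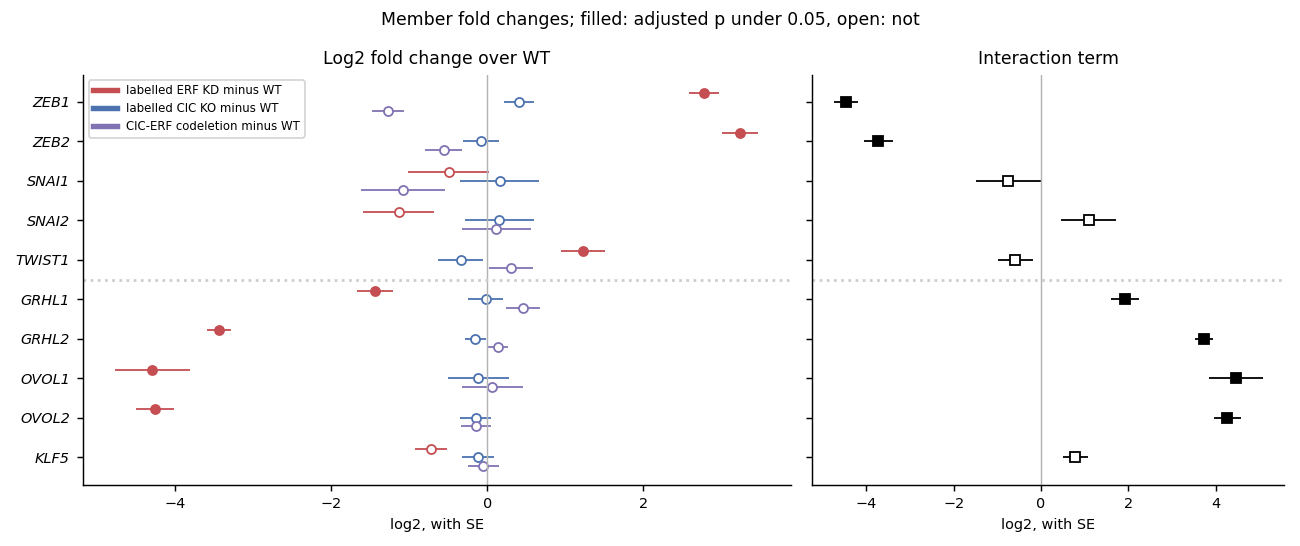
Log2 fold changes over WT (left) and interaction terms (right) of the 10 members, with SE as bars; filled symbols passed the test over all genes. Against WT, filled symbols appear only for the libraries labelled ERF KD (7 members), and *ZEB1* in CIC-ERF codeletion lies on the other side of 0 from its value in those libraries.

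CIC-ERF codeletion was then set against each single-loss group, to ask what the second loss adds. Against the libraries labelled ERF KD, *ZEB1* was lower by a log2 difference of -4.05 (SE 0.211, adjusted p = 3.76e-05) and *ZEB2* by -3.80 (SE 0.240, adjusted p = 8.11e-05). *GRHL1* was higher by 1.90 (SE 0.232, adjusted p = 0.00175), *GRHL2* by 3.58 (SE 0.154, adjusted p = 2.18e-05), *OVOL1* by 4.36 (SE 0.482, adjusted p = 0.00101) and *OVOL2* by 4.12 (SE 0.244, adjusted p = 6.62e-05). So 2 of 5 inducers were called lower and 4 of 5 epithelial-state factors higher, where 5.62% of all genes were called lower, 6.04% higher and 11.7% in all. *TWIST1* (log2 difference -0.93, adjusted p = 0.0715) and *KLF5* (0.67, adjusted p = 0.0707) were called only in some fits, among them the fit blocked on the replicate letter (adjusted p = 0.0294 and 0.0209, where 9.99% of all genes were called lower and 10.6% higher). This comparison shares the libraries labelled ERF KD with that against WT, so the 2 are not independent.

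Against the libraries labelled CIC KO, 0 of the 10 members were called, as were 0% of all genes (edgeR, with 1216 genes at an unadjusted p under 0.05, and 146 called by DESeq2, *ZEB1* among them). *ZEB1* was lower in CIC-ERF codeletion by a log2 difference of -1.68 (SE 0.203, adjusted p = 0.122). The blocked fit called it (adjusted p = 0.0209), where 0.266% of all genes were called lower. *ZEB2* (-0.48, SE 0.233) and *SNAI1* (-1.24, SE 0.538) were also lower in both libraries, without passing the test (adjusted p = 0.634 and 0.600). All other members differed by less than 0.65 on the log2 scale.

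The interaction term asks whether the difference between CIC-ERF codeletion and WT equals the sum of the differences of the single-loss groups, and it is the same whichever of these groups is which. It was -4.46 for *ZEB1* (SE 0.280, adjusted p = 0.000244) and -3.72 for *ZEB2* (SE 0.325, adjusted p = 0.000824). It was 1.91 for *GRHL1* (SE 0.319, adjusted p = 0.0153), 3.73 for *GRHL2* (SE 0.202, adjusted p = 0.000196), 4.47 for *OVOL1* (SE 0.614, adjusted p = 0.00684) and 4.27 for *OVOL2* (SE 0.312, adjusted p = 0.000429). Thus 6 of the 10 members had a term other than 0 by the test, where 4.15% of all genes did (2.67% higher and 1.48% lower). The term uses the same libraries labelled ERF KD as the comparisons above, so it is not independent of them. For *GRHL1* it did not pass without WT replicate B (adjusted p = 0.0659), without CIC-ERF codeletion replicate A (0.0670) or by limma on TPM at a pseudocount of 0.1 (0.0528). The terms of *SNAI1* (-0.75, SE 0.75), *SNAI2* (1.10, SE 0.631), *TWIST1* (-0.59, SE 0.401) and *KLF5* (0.79, SE 0.286) did not pass. Without ERF KD replicate B that of *SNAI2* was 2.14. With no filter on low counts those of *SNAI2* (adjusted p = 0.00142) and *KLF5* (0.0300) passed, where 1645 of 22195 genes did.

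*ETV1*, the ETS factor at the centre of the study, did not follow *ZEB1* in every group. It was 11.4 and 11.7 CPM in the WT libraries, 70.7 and 49.4 in those labelled ERF KD, 11.8 and 11.4 in those labelled CIC KO, and 19.5 and 22.4 in CIC-ERF codeletion. It was high together with *ZEB1* in the ERF KD libraries, whereas in CIC-ERF codeletion both *ETV1* libraries were above WT and both *ZEB1* libraries below it. Against WT its log2 fold change was 2.38 in the former (SE 0.201, adjusted p = 0.000300) and 0.86 in the latter (SE 0.197, adjusted p = 0.128).

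The deposited tables divide each gene's reads among annotated transcripts, which shows the models that made up the *ZEB1* signal. Protein-coding models of *ZEB1* had 0.715 and 0.693 TPM in the WT libraries, 13.6 and 18.1 in those labelled ERF KD, 0.736 and 1.99 in those labelled CIC KO, and 0.551 and 0.362 in CIC-ERF codeletion. All other models together, chiefly retained introns, had 4.22 and 3.39 TPM in the WT libraries, 4.90 and 5.07 in those labelled ERF KD, 3.34 and 3.05 in those labelled CIC KO, and 1.45 and 1.81 in CIC-ERF codeletion. Coding models thus made 14.5% and 17.0% of *ZEB1* TPM in WT but 73.5% and 78.1% in the libraries labelled ERF KD. The mean of the coding models was 22.5 times that of WT, and the mean of the other models 1.31 times.

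*ZEB1-201*, the main coding model, had 0 and 0.378 TPM in WT, against 7.62 and 9.28 in the libraries labelled ERF KD. The short retained-intron model *ZEB1-218*, which begins upstream of it, had 2.95 and 2.37 TPM in WT, against 1.97 and 2.54 in the libraries labelled ERF KD, which overlap. In CIC-ERF codeletion *ZEB1-218* had 1.13 and 1.51 TPM, below WT in both libraries. Most of the *ZEB1* reads that distinguished CIC-ERF codeletion from WT were on such non-coding models, whose estimated counts were 115 and 103 in WT and 42.6 and 37.3 in CIC-ERF codeletion. The coding models had 12.6 and 35.4 estimated counts in WT and 16.5 and 14.7 in CIC-ERF codeletion, too few to tell them apart. These splits are estimates from shared exons at low counts, and no test was made on them.

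For *ZEB2* and *TWIST1* the shares of coding models overlap between these groups. Coding models of *ZEB2* made between 84.7% and 100% of its TPM in WT, against between 95.8% and 98.6% in the libraries labelled ERF KD, where *ZEB2-201* had 7.77 and 8.38 TPM. Coding *TWIST1-201* had 6.61 and 6.36 TPM in WT, against 17.8 and 13.5 in the libraries labelled ERF KD. It made between 59.0% and 67.1% of the gene in WT, against between 60.7% and 77.0% in the libraries labelled ERF KD. Whether the libraries keep strand is not stated. *ZEB1*, *ZEB2* and *TWIST1* share exonic bases with antisense genes (366 with *ZEB1-AS1* and 1299 with *ZEB2-AS1*). So do *OVOL1* (1044 with *AP001266.1*) and *GRHL2* (50 with *AP001207.3*). If strand is not kept, reads of these antisense genes could not be told from those of the members.

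**Figure D3:**
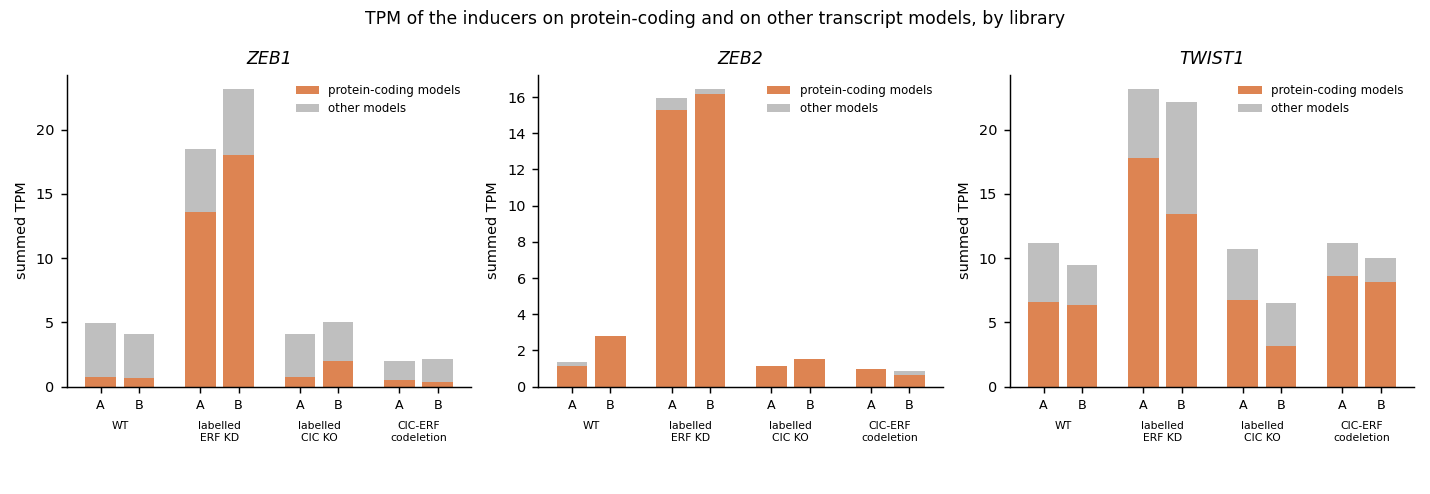
Summed TPM on protein-coding (orange) and other (grey) transcript models of *ZEB1*, *ZEB2* and *TWIST1* in each library. The grey part of *ZEB1* is between 3.05 and 5.07 TPM in the WT and single-loss libraries, while the orange part exceeds 13 TPM only in the libraries labelled ERF KD.

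Genes described as repressed by ZEB or SNAI factors or as activated by GRHL factors were all low in the libraries labelled ERF KD. Of 14 tested, 14 were called lower (median log2 fold change -3.24, against 0.01 over all genes), where 6.07% of all genes were. In CIC-ERF codeletion 14 were called higher than in the libraries labelled ERF KD (median 3.50, against 0.00), where 6.04% of all genes were. *CDH1* was 362 and 385 CPM in WT and 17.6 in both libraries labelled ERF KD, and fell by 4.41 (SE 0.148, adjusted p = 1.27e-05). In CIC-ERF codeletion *CDH1* was 258 and 273 CPM, below WT in both libraries and far above those labelled ERF KD. The tight-junction gene *CLDN7* (123 and 165 against 7.20 and 8.54 CPM) fell by 4.19, the splicing regulator *ESRP1* (208 and 206 against 10.4 and 14.4 CPM) by 4.06, and the small GTPase gene *RAB25* (45.4 and 47.8 against 2.83 and 3.53 CPM) by 3.87. In each of these genes the fall was about 10-fold or more. None of the 14 was called against WT in the libraries labelled CIC KO or in CIC-ERF codeletion, where 0% and 0.0682% of all genes were. The protease gene *ST14*, at 7.16 and 8.64 CPM in the libraries labelled ERF KD, was 128 and 153 in CIC-ERF codeletion, a log2 difference of 4.15 (SE 0.197, adjusted p = 2.72e-05). The interaction term was called for 13 of the 14, all above 0, where 2.67% of all genes were called higher. The other was *LLGL2* (2.29, SE 0.576, adjusted p = 0.0743), named after its value was seen.

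Mesenchymal genes were less uniform. Of 10 tested, 2 were called higher and 1 lower in the libraries labelled ERF KD (median log2 fold change 0.44), where 4.01% of all genes were called higher and 6.07% lower. The intermediate-filament gene *VIM* rose from 105 and 211 to 1497 and 1953 CPM (log2 fold change 3.45, SE 0.586, adjusted p = 0.00835), and N-cadherin (*CDH2*) from 45.4 and 61.3 to 178 and 195 CPM (1.81, SE 0.237, adjusted p = 0.00258). Fibronectin (*FN1*), which is described as rising in EMT, went from 3038 and 3948 to 1587 and 1966 CPM and fell by 0.98 (SE 0.213, adjusted p = 0.0247). In CIC-ERF codeletion against the libraries labelled ERF KD, 3 of the 10 were called lower, namely *VIM* (32.4 and 109 CPM, log2 difference -4.61), *CDH2* (44.1 and 63.3 CPM, -1.80) and the fibronectin receptor subunit *ITGA5* (-1.29), where 5.62% of all genes were called lower.

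Other factors of the epithelial state fell in part. Of 8 tested, 4 were called lower in the libraries labelled ERF KD (median log2 fold change -1.20), where 6.07% of all genes were, and 4 were not called. The ETS factor *EHF* went from 5.03 and 9.64 to 0.480 and 0.447 CPM (-3.96, adjusted p = 0.00511) and the ETS factor *ELF3* from 105 and 88.7 to 33.9 and 8.49 CPM (-2.19, adjusted p = 0.0378). *TFAP2C*, a factor of surface epithelium, was also called lower (-1.24, adjusted p = 0.0176). Between CIC-ERF codeletion and the libraries labelled ERF KD, 3 of 8 were called higher in the former (6.04% of all genes), among them *ELF3* (2.82) and *TFAP2C* (1.89). *EHF* was not among them. It was 0.677 and 2.14 CPM in CIC-ERF codeletion, both below WT, with a log2 difference of -2.40 (SE 0.537) that did not pass the test (adjusted p = 0.122) but was called with the replicate letter as a block (adjusted p = 0.0326).

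Of 12 other factors described as EMT inducers, 0 were called higher and 1 lower in the libraries labelled ERF KD (median 0.21), which is near the shares over all genes (4.01% and 6.07%). The latter was *KLF8*, a Krüppel-like factor, at 29.3 and 26.0 CPM in WT and 7.30 and 6.61 in these libraries (-1.99, SE 0.217, adjusted p = 0.00102). With the replicate letter as a block 1 was called higher and 2 lower, where 8.39% and 9.83% of all genes were. Between CIC-ERF codeletion and the libraries labelled ERF KD, *KLF8* was called higher (1.55) and the E-protein *TCF4* lower (-1.11) in the former. Of all genes, 6.04% were called higher and 5.62% lower there.

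Of 10 co-repressors of ZEB and SNAI factors, the LIM-domain gene *AJUBA* was called higher (0.61, adjusted p = 0.0243) and the deacetylase gene *HDAC1* lower (-0.47, adjusted p = 0.0460) in the libraries labelled ERF KD, with a median of 0.14. These counts of 1 and 1 are near the shares over all genes (4.01% higher and 6.07% lower). Between CIC-ERF codeletion and these libraries, *KDM1A* (0.72) and *HDAC1* (0.60) were called higher and *AJUBA* (-0.62) and *CTBP1* (-0.62) lower. Of all genes, 6.04% were called higher and 5.62% lower in that comparison. Of 11 regulators of the stability of SNAI, TWIST, ZEB or KLF5 proteins, 2 were called lower, the ubiquitin-ligase genes *FBXW7* (-0.78) and *WWP1* (-0.69), whose products are known to mark KLF5 for degradation, where 6.07% of all genes were called lower (2 higher and 3 lower of the 11 with the block, against 8.39% and 9.83% of all genes). *FBXW7* was higher in CIC-ERF codeletion than in the libraries labelled ERF KD (0.50, adjusted p = 0.0468), where 6.04% of all genes were called higher.

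Of 10 ligands, receptors and SMADs of the TGF-beta pathway, a known inducer of EMT, 3 were called higher in the libraries labelled ERF KD (median 0.40), where 4.01% of all genes were. The ligand *TGFB3* had a log2 difference of 1.69 (adjusted p = 0.0461), the receptor *TGFBR1* of 1.31 (adjusted p = 0.00716) and the ligand *TGFB1* of 0.68 (adjusted p = 0.0238). *TGFBR1* was 104 and 121 CPM in WT, against 324 and 234 in the libraries labelled ERF KD, without overlap. In CIC-ERF codeletion it was 95.0 and 99.1 CPM, and against the libraries labelled ERF KD *TGFBR1* (-1.53), *TGFB1* (-0.73) and the co-receptor *TGFBR3* (-0.69) were called lower, where 5.62% of all genes were. The interaction term was called above 0 for 2 of 8 other epithelial-state factors and 1 of 12 other inducers (2.67% of all genes). It was called below 0 for 2 of 10 mesenchymal genes and 1 of 10 TGF-beta genes (1.48% of all genes). For co-repressors and stability regulators 0 were called. Of the genes of these 7 lists, 0 were called in CIC-ERF codeletion against WT, where 0.0682% of all genes were. With the replicate letter as a block, *TFAP2C* (0.63), *TGFB2* (0.72) and *LATS2* (0.69) were called higher there, where 0.969% of all genes were, and *EHF* (-2.43), *FN1* (-0.52) and *ITGA5* (-0.73) lower, where 1.52% were, and these were named after their values were seen.

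**Figure D4:**
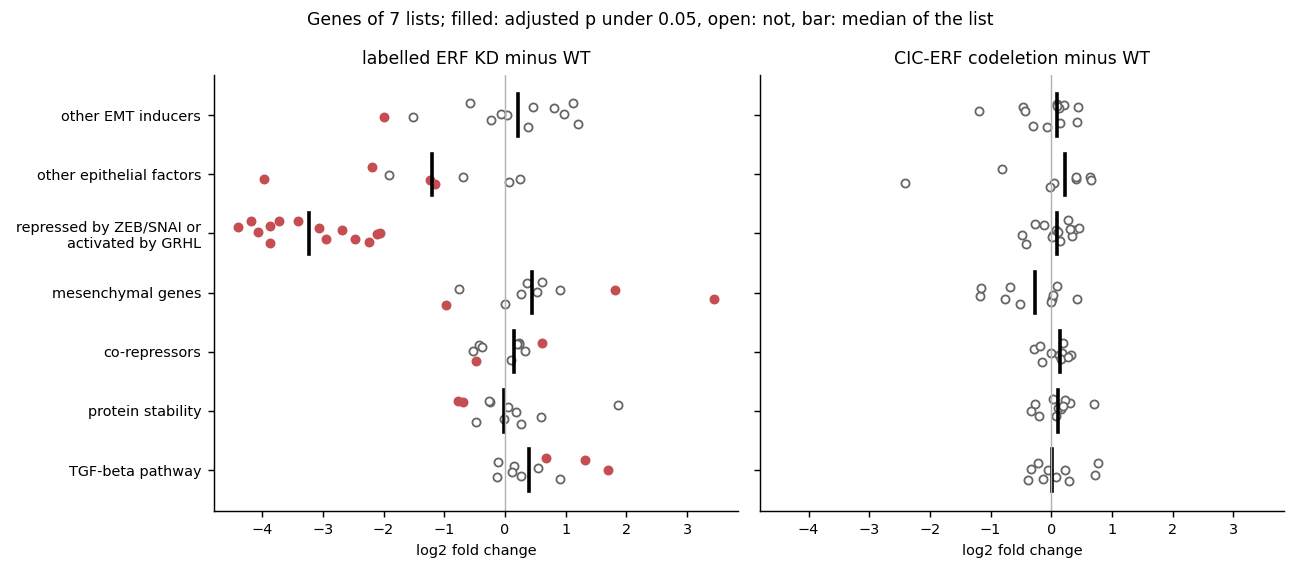
Log2 fold changes over WT of the genes of 7 lists in the libraries labelled ERF KD (left) and in CIC-ERF codeletion (right); red points passed the test and bars are list medians. On the left the genes repressed by ZEB or SNAI or activated by GRHL factors have a median of -3.24 and all 14 are red. On the right no point is red. Of all genes tested, 6.07% were called lower on the left and 0.0682% were called on the right.

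The genes whose levels ran most like those of 2 members were found by the correlation of log2 CPM over the 8 libraries, among 12598 protein-coding genes. For *GRHL2* they were *KDF1*, which encodes a factor of keratinocyte differentiation (Pearson r = 0.998), *ESRP1* (0.998), *FAM110A* (0.997), *CRB3* (0.996) and *EPHA1* (0.996). For *ZEB1* they were *TM7SF3* (0.987), *TMEM106B* (0.984), *FHL1* (0.984), *PRPF18* (0.982) and *C9orf3* (0.982). A correlation does not measure the size of a change. *PRPF18* was 25.6 and 25.3 CPM in the WT libraries and only 28.7 and 28.1 in those labelled ERF KD. *KDF1* was 10.4 and 9.94 CPM in the WT libraries, 0.768 and 0.894 in those labelled ERF KD, 10.1 and 9.62 in those labelled CIC KO, and 12.8 and 10.6 in CIC-ERF codeletion. *TM7SF3* was 76.0 and 78.8 CPM in the WT libraries, 161 and 142 in those labelled ERF KD, 85.8 and 84.4 in those labelled CIC KO, and 52.0 and 61.7 in CIC-ERF codeletion, so that, like *ZEB1*, it was lowest in CIC-ERF codeletion. The points share 4 groups, and 1 group that stands apart is enough for such values.

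Among the members themselves, over the same 8 libraries, *GRHL2* ran with *OVOL2* (r = 0.997) and *OVOL1* (0.980) and against *ZEB2* (-0.991) and *ZEB1* (-0.927). *SNAI2* ran with the epithelial-state factors, with r between 0.566 (*KLF5*) and 0.893 (*OVOL1*), and against *ZEB1* (-0.704), *ZEB2* (-0.786) and *TWIST1* (-0.777). *SNAI1* had r between -0.418 and 0.282 with the other members. These values describe the libraries and carry no test.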

How the data were processed

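PNT2 libraries were made and sequenced by a company. The authors deposited kallisto tables with an estimated count and a TPM value for each transcript, not pooled over replicates. The submitters' processing notes name hg19, the study's methods name another quantifier, and the annotation and strandedness are not given in the sources used here. Transcripts were matched to GENCODE release 29 by identifier (85.0%, carrying between 93.2% and 93.3% of counts), summed per gene and rounded. At these depths 3 counts are at most 0.165 CPM. After filterByExpr and TMM, all 8 libraries were fitted with edgeR 4.0.16 (R 4.3.3). Alternatives were DESeq2 1.42.0, no filter, a block on the replicate letter, counts scaled by length, limma 3.58.1 on log2(TPM + 1) or log2(TPM + 0.1), upper-quartile scaling, only the groups compared, and 8 fits leaving out 1 library. The test was checked on simulated counts.

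Replicates differed by more than sampling noise (chi-square between 21.5 and 43.1 per degree of freedom). The A minus B differences correlated between groups with r from 0.136 to 0.335, and a block on the letter was fitted as an alternative. The main fit used group means only and did not pair the libraries. The block, whose source the labels do not give, lowered the coefficient of variation from 0.197 to 0.142. Members and lists were chosen with earlier results of these data known. The members, *ERF*, *CIC* and *ETV1* are named throughout; of the 7 other lists, called genes whose libraries do not overlap are named, at most 4 for each list and comparison by fold change, and for the interaction counts are given. For likeness, the 5 genes with the highest correlation to *ZEB1* and to *GRHL2* are named. 1 gene that this rule names is not reported here.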

Additional observations from a re-analysis of the deposited data

Results flagged for a closer look

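In 6 of the 10 members the difference between CIC-ERF codeletion and WT was not the sum of those of the single-loss groups, by the interaction term of edgeR's fit over all genes (adjusted p from 0.000196 to 0.0153). Of all genes tested, 4.15% were called by this term. The log2 term was -4.46 for *ZEB1* and -3.72 for *ZEB2*. It was 1.91 for *GRHL1*, 3.73 for *GRHL2*, 4.47 for *OVOL1* and 4.27 for *OVOL2*. For these 6 genes the libraries labelled ERF KD differ from the other 6 libraries in every pairing. Against WT alone, both libraries labelled ERF KD were above in 28.3% of all genes and below in 28.0%. Those libraries also had the lowest summed epithelial markers (1648 and 2020 TPM, against 3721 or more elsewhere). Their *ERF* mRNA was above WT without passing the test (log2 difference 0.51, adjusted p = 0.161). The part of either in the terms was not tested.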

How the results depend on the processing

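Of 60 pairs of a member and a comparison, 19 were called. Over the alternatives their 298 values kept direction, and 286 also stayed called. The 12 that did not belong to *TWIST1* and *GRHL1*. Among 652 values of pairs not called, 29 passed the test under an alternative. For groups of 2, a fit that leaves out a library assumes that the lone library varies like the others.

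The number of inducers called in CIC-ERF codeletion was 1 against WT and 1 against the libraries labelled CIC KO with DESeq2, with no filter and with the replicate letter as a block (*ZEB1* each time). With no filter 4 were called against the libraries labelled ERF KD. With the replicate block, *KLF5* was also called lower than WT in the libraries labelled ERF KD (adjusted p = 0.0156), and *TWIST1* and *KLF5* between CIC-ERF codeletion and these libraries. The block changed no other call of a member. It raised the genes called in the libraries labelled ERF KD from 1477 to 2671, in CIC-ERF codeletion against WT from 10 to 365 and in the interaction from 608 to 1400.

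Leaving out 1 library gave between 2 and 3 inducers and between 3 and 5 epithelial-state factors called in the libraries labelled ERF KD against WT, between 2 and 3 and between 4 and 5 in CIC-ERF codeletion against these libraries, and between 2 and 3 and between 3 and 4 in the interaction. It gave 0 in the other comparisons. Over all genes, leaving out 1 library gave between 620 and 1477 calls in the libraries labelled ERF KD against WT, between 702 and 1638 in CIC-ERF codeletion against these libraries and between 272 and 554 in the interaction, and the other alternatives gave up to 2671, 3014 and 1645.

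Some log2 differences that were not called changed sign, and the cause was not tested. In the libraries labelled CIC KO against WT, leaving out 1 library gave between -0.299 and 0.17 for *ZEB2*, between -0.0773 and 0.44 for *SNAI1*, between -0.843 and 0.0335 for *TWIST1*, between -0.202 and 0.19 for *GRHL1* and between -0.434 and 0.30 for *OVOL1*. In CIC-ERF codeletion against WT it gave between -0.31 and 0.44 for *SNAI2*, between -0.25 and 0.48 for *OVOL1* and between -0.30 and 0.17 for *KLF5*. In CIC-ERF codeletion against the libraries labelled CIC KO it gave between -0.458 and 0.29 for *SNAI2*, between -0.0571 and 0.461 for *OVOL1*, between -0.0818 and 0.0976 for *OVOL2* and between -0.18 and 0.282 for *KLF5*. Against WT, *OVOL1* in CIC-ERF codeletion was -0.0901 with length-scaled counts, -0.11 on log2(TPM + 1) and -0.12 on log2(TPM + 0.1). Against the libraries labelled CIC KO, *OVOL2* was -0.0657, -0.0798 and -0.0848 on these scales and -0.0124 with upper-quartile scaling, and *SNAI2* was 0.000771 with the replicate block. Counts were low for *SNAI1* (between 6 and 23 a library) and for the coding *ZEB1* models outside the libraries labelled ERF KD.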
